A study of Diospyros kaki with 21 samples.

Results

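Cluster-16487.111793 is 1 of 261970 unigenes assembled from persimmon (Diospyros kaki) flesh, and it took the largest read count in each of the 9 CK libraries. It was chosen by that count, so its levels in CK, and every comparison of it with CK, are given as a description with no test. RNA was sequenced from fruit of 'Jingmianshi', an astringent cultivar, in 7 groups of 3 libraries (A, B and C). Treatment began at 0 d in storage: CK fruit spent 1 d in closed containers without added gas, CO2 fruit spent it in 95% CO2, and CO2+1-MCP fruit in 95% CO2 with 1-methylcyclopropene, which blocks ethylene receptors. The fruit then went into air. CK was sampled at 0 d, when treatment began, and at 1 and 4 d in storage, and both treatments at 1 and 4 d. The groups are batches of mature fruit of 1 cultivar from 1 harvest, so each measures that batch.

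The unigene is 922 bases long and carries PF00182, the catalytic domain that Pfam names chitinase class I. Its best NR hit was Endochitinase 2 of Capsicum annuum with a score of 1174, its best Swiss-Prot hit was the basic endochitinase CHIT1B of Vitis vinifera with a score of 1111, and its KEGG orthology entry was K01183, chitinase. In NT it matched a partial Diospyros kaki mRNA for chitinase, clone 7S14-8, with a score of 319. The Gene Ontology terms name chitinase activity, chitin catabolism and catabolism of cell wall macromolecules. The hevein domain (PF00187), with which many plant chitinases bind chitin, was not among its Pfam entries, so the domain's name is not taken here as the class of the protein. No KOG entry was listed.

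Chitinases cleave chitin, the polymer of N-acetylglucosamine that stiffens fungal cell walls and that plants do not make. Plants count them among the pathogenesis-related proteins, together with thaumatin-like proteins and beta-1,3-glucanases, and several of these are made at a high level in sound fruit that no pathogen has entered. In grape berries chitinases and thaumatin-like proteins are among the main soluble proteins of ripe fruit, and a class I chitinase of banana and avocado fruit is a known allergen.

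Depth was similar over the groups, at 14644843 to 24943140 estimated counts per library. The CO2+1-MCP library B at 4 d stood apart from its replicates, with Spearman correlations of 0.701 and 0.667 across unigenes, against 0.788 to 0.856 within the other 6 groups. The treatment labels of 1 d were checked with the persimmon pyruvate decarboxylase (DkPDC) unigenes, which make acetaldehyde when oxygen is short: they took 0.036% to 0.041% of counts in the CK groups, 0.374% in CO2 and 0.467% in CO2+1-MCP at 1 d. These values give no check of the labels at 4 d. The persimmon alcohol dehydrogenase (DkADH) unigenes, given with the processing, reached down in treated groups to about the top of their CK range. Marker lists of 88 seed, 223 peel, 119 green tissue and 90 vascular unigenes, of which 84, 220, 119 and 84 had any count, each took 0.014% to 0.084% of counts by group mean. Several of them moved with the groups. Peel markers took 0.084% ± 0.023 and seed markers 0.079% ± 0.027 (SD, n = 3) in CO2 at 4 d, against 0.035% to 0.041% and 0.031% to 0.049% in the other 6 groups. Vascular markers were highest in CO2+1-MCP at 4 d, at 0.032%, against 0.014% in CO2 and 0.021% in CK at 4 d, with no overlap. Green markers took 0.063% in CO2 and 0.053% in CO2+1-MCP at 1 d, against 0.044% in CK at 1 d, and these 3 groups did not overlap. Seed markers at 1 d, at 0.048% in CO2 and 0.049% in CO2+1-MCP, lay above CK at 0.036% with no overlap. The part of these markers in the results at 1 d and 4 d was not tested.

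In untreated fruit 15.6% to 21.4% of all counts of a library fell on this single unigene. At 0 d it took 18.1%, 18.0% and 16.3% of the counts of libraries A, B and C. At 1 d in CK it took 21.4%, 19.6% and 18.9%, the highest values of the study. At 4 d in CK it took 15.6%, 15.8% and 15.8%. The 3 CK groups did not overlap with each other, and the group means were 17.5% ± 1.05, 20.0% ± 1.28 and 15.7% ± 0.064 (SD, n = 3). The next largest unigene took 2.51% to 3.10% of counts in the CK libraries, so that the chitinase held 5.63 to 6.89 times as many counts as the unigene just below it. At this depth the 95% Wilson interval of a share was at most 0.038 points wide, and it covers counting error only.

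All 12 libraries from CO2 fruit were far below this. In CO2 at 1 d the chitinase took 3.48%, 3.31% and 3.30% of counts in A, B and C. In CO2 at 4 d it took 1.35%, 3.49% and 4.05%, and library A lay well below the others. In CO2+1-MCP it took 4.07%, 4.25% and 5.36% at 1 d and 5.09%, 5.20% and 4.39% at 4 d. The highest treated library, at 5.36%, lay below the lowest CK library, at 15.6%.

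**Figure D1:**
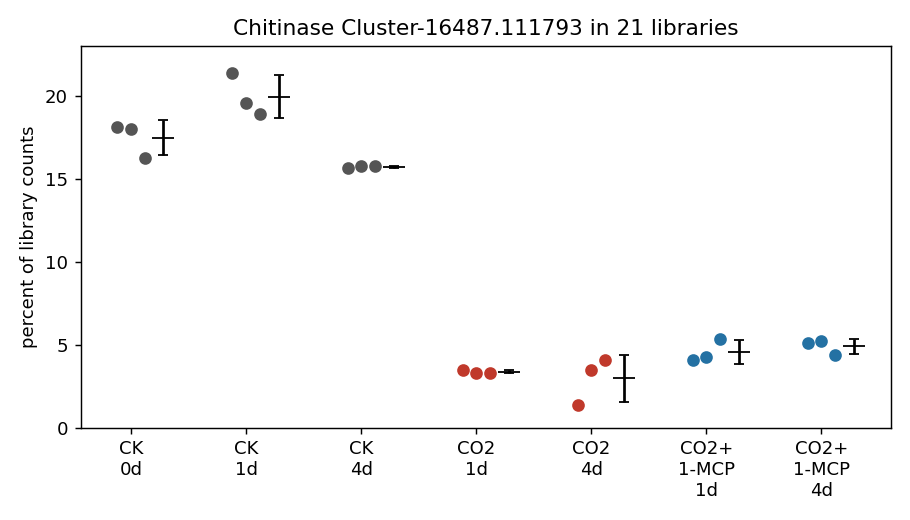
Percent of library counts on the PF00182 chitinase Cluster-16487.111793 (y axis) in the 3 libraries of each of 7 groups (points in the order A, B, C), with the group mean and SD (black bar). The 9 CK libraries lie between 15.6% and 21.4%, and the 12 treated libraries between 1.35% and 5.36%.

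By group mean the order was CK 1 d, CK 0 d, CK 4 d, CO2+1-MCP 4 d (4.90% ± 0.439), CO2+1-MCP 1 d (4.56% ± 0.701), CO2 1 d (3.36% ± 0.103) and CO2 4 d (2.97% ± 1.42; SD, n = 3). Neighbours whose libraries overlapped were CO2+1-MCP at 4 and 1 d, and CO2 at 1 and 4 d. At 1 d the mean share in CK was 5.93 times that in CO2 and 4.38 times that in CO2+1-MCP. At 4 d it was 5.30 times that in CO2, or 4.17 times without the CO2 library A, and 3.21 times that in CO2+1-MCP. In edgeR, which scales each library by TMM, the fitted log2 fold change was -2.62 ± 0.34 (SE) for CO2 and -2.13 ± 0.34 for CO2+1-MCP against CK at 1 d. At 4 d it was -2.40 ± 0.44 and -1.83 ± 0.16. Within CK it was 0.25 ± 0.12 for 1 d and -0.23 ± 0.09 for 4 d, each against 0 d. The 1 d comparisons share the CK libraries of 1 d, the 4 d comparisons those of 4 d, and the comparisons within CK those of 0 d. In bulk flesh, fewer cells that make a transcript and less of it per cell cannot be told apart.

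The authors' FPKM, which divides by library depth and by unigene length, gave the same order of groups. Mean FPKM was 271934 ± 17587 in CK at 0 d, 310141 ± 20659 at 1 d and 242987 ± 431 at 4 d (SD, n = 3). It was 51970 ± 1756 and 45980 ± 22133 in CO2 at 1 and 4 d, and 69873 ± 10589 and 74745 ± 5428 in CO2+1-MCP at 1 and 4 d. On this scale the unigene was not the highest of CK fruit: it ranked 2nd in each of the 9 CK libraries, behind Cluster-16487.111174, another chitinase unigene of only 331 bases. FPKM rests here on an effective length, the number of start positions a fragment can take, which the deposited values put at 58 to 79 bases for the short unigene and at 640 to 668 for Cluster-16487.111793. Per kilobase of full length, at 1 d in CK, the short unigene had a CPM of 85057 ± 5891 and Cluster-16487.111793 had 216391 ± 13868 (SD, n = 3). The 2 chitinases therefore change places with the definition of length.

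Over the 21 libraries the chitinase had the largest count in 20. The exception was CO2 4 d library A, where Cluster-16487.115103, annotated as the persimmon xyloglucan endotransglycosylase/hydrolase 10, an enzyme family that cuts and rejoins the xyloglucan of the cell wall, had more. The chitinase held there 0.945 times the counts of that unigene. In the other 11 treated libraries it held 2.54 to 4.60 times the next unigene. The unigene next below, or above in that 1 library, was most often Cluster-16487.110924, a thaumatin-like protein by its Swiss-Prot hit, in 11 of 21 libraries. Others were Cluster-16487.110754, a beta-fructofuranosidase that splits sucrose in the cell wall, in 5 libraries, and the chitinase Cluster-16487.111174 in 3. Cluster-16487.93179, a pyruvate decarboxylase, was next in 1 library of CO2+1-MCP fruit. The 10 largest unigenes together took 24.5% to 32.1% of counts in CK libraries and 7.92% to 11.5% in treated ones.

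CO2+1-MCP was tested against CO2, because those 12 libraries had no part in the rule that chose the unigene. Earlier results of these data were known when the test was chosen. Each treatment was 1 batch of fruit, so the p-values measure the spread between samples within batches. Within each day the shares did not overlap: at 1 d every CO2+1-MCP library was above every CO2 library, and likewise at 4 d. Averaged over the days, the share was 4.73% in CO2+1-MCP and 3.17% in CO2, a difference of 1.56 points. In an exact two-sided permutation test of the treatment labels within days (6 against 6 libraries, 400 arrangements), p was 0.005, the smallest value this design can give, and 0.01 after Benjamini-Hochberg adjustment over the 2 permutation tests made. Within 1 day, 3 libraries against 3 cannot give an exact p below 0.1. Without CO2 4 d library A the difference was 1.16 points (p = 0.01 in the exact permutation test), and without CO2+1-MCP 4 d library B it was 1.48 points (p = 0.01 likewise). With TMM-scaled library sizes the difference was 1.39 points (exact permutation p = 0.01), and the libraries at 4 d then overlapped.

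The test across all unigenes did not call this difference. The edgeR log2 fold change of CO2+1-MCP against CO2 was 0.45 ± 0.24 (SE) at 1 d, with an edgeR adjusted p of 0.749 over 56191 unigenes. At 4 d it was 0.61 ± 0.42, with an edgeR adjusted p of 0.999 over 62228 unigenes. At 4 d the means on the share scale were 1.65-fold apart, and 1.30-fold apart without CO2 4 d library A. No unigene at all passed an adjusted p of 0.05 in either comparison, so that 0% of those tested were called in each. At an unadjusted p below 0.05 there were 1747 higher (3.11%) and 2420 lower (4.31%) at 1 d, and 699 higher (1.12%) and 3184 lower (5.12%) at 4 d. DESeq2 called 314 higher (0.559%) and 496 lower (0.883%) at 1 d, and 141 higher (0.227%) and 1478 lower (2.38%) at 4 d. DESeq2 gave an adjusted p of 0.206 for the chitinase at 1 d. The difference of the 1-MCP effect between 4 d and 1 d was 0.09 ± 0.44 on the log2 scale, with an edgeR adjusted p of 1.

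From 1 d to 4 d the treated fruit showed no detectable change of this unigene. The mean share over both treatments was 3.93% at 4 d and 3.96% at 1 d (exact permutation p = 0.955 within treatments, two-sided, 400 arrangements). In edgeR the log2 fold change of 4 d against 1 d was -0.25 ± 0.47 in CO2 (edgeR adjusted p = 0.722) and -0.19 ± 0.29 in CO2+1-MCP (edgeR adjusted p = 0.685). With TMM-scaled library sizes the difference was -0.77 points (exact permutation p = 0.085). Leaving out CO2 4 d library A turned the difference in shares to 0.373 points (exact permutation p = 0.14) and the edgeR value in CO2 to 0.09.

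No other unigene carried the same NR description, so the unigenes with the same domain were taken as its nearest relatives. PF00182 was listed for 85 other unigenes, of which 70 had any count and 38 matched the same Diospyros kaki clone in NT. Together with Cluster-16487.111793 they took 21.2% ± 1.18 of counts in CK at 0 d, 24.1% ± 1.29 at 1 d and 19.2% ± 0.275 at 4 d (SD, n = 3). In CO2 they took 4.25% ± 0.075 at 1 d and 3.73% ± 1.80 at 4 d, and in CO2+1-MCP 5.79% ± 0.993 and 6.15% ± 0.542. Cluster-16487.111793 alone made up 77.3% to 84.1% of these counts in the 21 libraries, and 83.9% to 90.9% of the counts of unigenes with its NT description. Reads from near-identical copies or from fragments of 1 transcript can be split between such unigenes by the counting, so the level of a single one is uncertain. With all unigenes of the same NT description summed to 1 feature, the log2 fold changes of CO2 against CK were -2.61 at 1 d and -2.41 at 4 d.

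**Figure D2:**
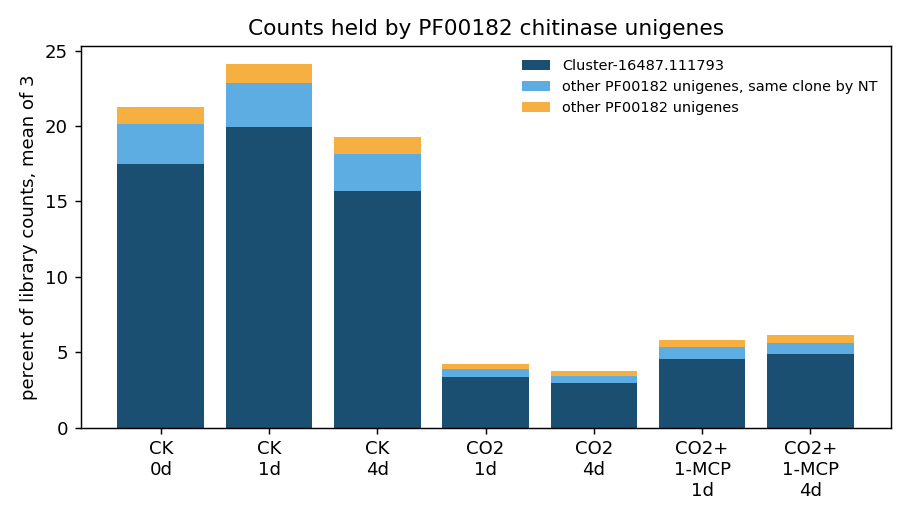
Mean percent of library counts (y axis, n = 3) held by Cluster-16487.111793 (dark blue), by the other PF00182 unigenes that match the same clone in NT (light blue) and by the remaining PF00182 unigenes (orange) in 7 groups. The dark part is the largest in every group, from 20.0% in CK at 1 d to 2.97% in CO2 at 4 d.

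The most abundant relatives by mean FPKM were 5 short unigenes of 222 to 352 bases. FPKM ranks such short unigenes high, since it divides by a small effective length. Each of the 5 had a higher mean FPKM in every CK group than in any treated group. The ranking thus leans on their CK level, and their tests against CK, here and below, give no independent support. Cluster-16487.111174 also matches the same clone in NT, so its counts can hold reads split with Cluster-16487.111793. By mean share of counts, Cluster-16487.110134, Cluster-16487.111775 and Cluster-16487.110264 took only 0.018%, 0.0054% and 0.0081%. The longer Cluster-16487.109981, of 1515 bases, went the other way at 1 d, with 0.045% of counts in CK and 0.084% in CO2. Cluster-16487.111174, a partial chitinase of Diospyros kaki by its NR hit, had FPKM values of 474837, 445277 and 485295 in CK at 1 d and of 77383, 81220 and 91111 in CO2 at 1 d. Its groups did not overlap, and it fell in CO2 at 1 d by 2.49 on the log2 scale (SE 0.22, edgeR adjusted p = 0.000479). It also fell at 4 d, by 2.47 (SE 0.40, edgeR adjusted p = 0.0278). That call was lost without any 1 of the CK libraries of 4 d, or without CO2 4 d library B. Cluster-16487.111784, a basic endochitinase by its hit in kiwifruit, had FPKM values of 153565, 143144 and 141656 in CK at 1 d and of 29968, 26663 and 29062 in CO2. It fell by 2.35 at 1 d (SE 0.20, edgeR adjusted p = 0.000432), and in CO2 at 4 d its library A, at 9186, lay below B and C, at 31470 and 43657, as in Cluster-16487.111793.

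The remaining 3 of these 5, Cluster-16487.110134, Cluster-16487.111775 and Cluster-16487.110264, had a deeper fall at 1 d that was followed by a rise. Cluster-16487.110134 had 8016, 4958 and 11080 counts in CK at 1 d, and 315, 404 and 256 in CO2. That is a log2 fold change of -4.43 ± 0.29 (SE, edgeR adjusted p = 0.000177). In CO2 at 4 d it had 869, 1650 and 4532 counts, above all 3 libraries of 1 d, and rose from 1 d to 4 d by 2.38 ± 0.43 (SE, edgeR adjusted p = 0.00858). Cluster-16487.111793 had -0.25 ± 0.47 in that comparison. Counts are given here in place of FPKM, since the deposited values put the effective length of Cluster-16487.110134 at only 10.7 to 18.6 bases.

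Cluster-16487.111775 had 2764, 1584 and 3190 counts in CK at 1 d, 76, 117 and 108 in CO2 at 1 d, and 240, 413 and 1300 in CO2 at 4 d. It fell at 1 d by 4.46 on the log2 scale (SE 0.29, edgeR adjusted p = 0.000189) and rose from 1 d to 4 d by 2.20 (SE 0.47, edgeR adjusted p = 0.0142). Cluster-16487.110264 had 4106, 2677 and 3762 counts in CK at 1 d, 118, 166 and 101 in CO2 at 1 d, and 411, 967 and 1467 in CO2 at 4 d. It fell by 4.62 (SE 0.26, edgeR adjusted p = 0.000123) and then rose by 2.48 (SE 0.35, edgeR adjusted p = 0.00437). In both, all 3 CO2 libraries of 4 d were above those of 1 d and below those of CK at 1 d. In CO2+1-MCP from 1 d to 4 d the edgeR test called none of the 3: Cluster-16487.110134 had 0.37 ± 0.28 (SE, edgeR adjusted p = 0.412), Cluster-16487.111775 had 0.36 ± 0.31 (SE, edgeR adjusted p = 0.474) and Cluster-16487.110264 had 1.18 ± 0.46 (SE, edgeR adjusted p = 0.12). The starting levels differed: Cluster-16487.110134 took 0.0077% of counts in CO2+1-MCP and 0.0019% in CO2 at 1 d, and 0.0125% and 0.0108% at 4 d. For the difference of the 1-MCP effect between days, edgeR called 0 of 25 PF00182 unigenes, beside 4 higher and 17 lower of all 77447. DESeq2 called 1 higher and 5 lower, beside 556 and 1147 of all.

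Among the other PF00182 unigenes, CO2 at 1 d against CK left 24 with enough counts for the test, of which 15 fell and 5 rose in edgeR, with a median log2 fold change of -2.14. Of all 60190 unigenes tested, 19.6% fell and 20.9% rose, with a median of -0.05. Of the 9 that match the same clone, 8 fell and 0 rose, with a median of -3.12, and 8 were below an unadjusted p of 0.05, all of them lower, beside 24.4% lower and 25.1% higher of all unigenes. The count filter takes unigenes that are high in only 1 of the 2 groups, and such unigenes can only come out on that side. Between CO2+1-MCP and CO2 at 1 d, only 6 of the same clone passed it. Those that passed through CK alone could thus only fall, and the 8 give no independent support. In CO2+1-MCP at 1 d 15 of 25 fell and 4 rose, with a median of -1.64. The background there was 17.2% lower and 18.5% higher of 59566 unigenes. These 2 comparisons share their CK libraries.

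At 4 d fewer were called. In CO2 against CK 4 of 26 fell and 6 rose, with a median log2 fold change of -0.70, beside 1.76% lower and 4.57% higher of 63046 unigenes. In CO2+1-MCP against CK 1 of 26 fell and 3 rose, with a median of -0.33, beside 0.0498% lower and 0.253% higher of 64312 unigenes. The 1 that fell was Cluster-16487.111174. These counts moved with those of the whole test when single libraries were left out. Without any 1 of the CK libraries of 4 d, 0 unigenes of all those tested, and so no PF00182 unigene, were called in either comparison. The same held without CO2 4 d library B in the comparison with CO2, and without CO2+1-MCP 4 d library A or C in that with CO2+1-MCP. Without CO2 4 d library C 8 PF00182 unigenes were called lower in CO2, beside 5.55% of all 68976 tested. Without CO2+1-MCP 4 d library B 7 were called higher and 4 lower in CO2+1-MCP, beside 3.09% and 2.50% of all 72647 tested. In CO2 from 1 d to 4 d 11 of 22 rose and 2 fell, beside 16.3% and 15% of 58543 unigenes, and without CO2 1 d library B or C 6 rose, beside 7.74% and 8.59% of all unigenes. In CO2+1-MCP from 1 d to 4 d 3 of 22 rose and 3 fell, with a median of 0.35, beside 9.66% and 11.1% of 59934 unigenes. Of the 7 tested there that match the same clone, 0 were called by edgeR or DESeq2, and 0 were below an unadjusted p of 0.05. Over all unigenes DESeq2 called 14.7% higher and 15.5% lower there, and 17.4% and 17.7% were higher and lower at an unadjusted p below 0.05. Between CO2+1-MCP and CO2 0 of 21 were called at 1 d and 0 of 23 at 4 d by edgeR. At an unadjusted p below 0.05 12 were higher and 2 lower at 1 d, and 1 higher and 2 lower at 4 d, and DESeq2 called 6 higher and 1 lower at 1 d, and 0 higher and 1 lower at 4 d. Over all unigenes tested 3.11% were higher and 4.31% lower at 1 d at an unadjusted p below 0.05, and 1.12% and 5.12% at 4 d. DESeq2 called 0.559% and 0.883% of all at 1 d, and 0.227% and 2.38% at 4 d.

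**Figure D3:**
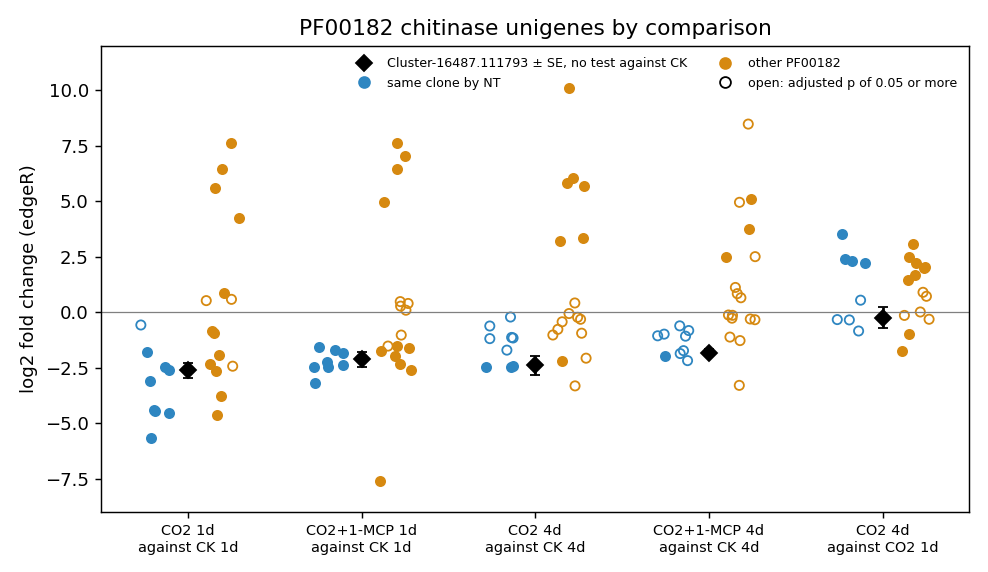
Log2 fold change in edgeR (y axis) of the PF00182 unigenes in 5 comparisons (x axis), with those of the same clone in NT in blue and the others in orange, and filled points for an edgeR adjusted p below 0.05. The diamond is Cluster-16487.111793 with its SE, at -2.62 and -2.13 at 1 d and -2.40 and -1.83 at 4 d against CK, where it has no test. Fitted values of unigenes with no count in 1 group, such as the highest points, depend on a prior count and give no size.

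A small set of relatives was higher in treated fruit, and these were picked out after their values were seen. Their p-values against CK, here and in the next paragraph, therefore give no independent support. A unigene with next to no counts in CK can pass the count filter only through treated fruit, and can then only rise. Cluster-16487.28110, Cluster-16487.28111 and Cluster-16487.28112 are annotated as endochitinases, are longer, at 1197 to 1263 bases, and carry the hevein domain beside PF00182, as do 6 of the 85 relatives. All 3 rose in CO2 at 1 d against CK in edgeR, by 5.60 ± 0.27, 6.47 ± 0.45 and 4.24 ± 0.62 on the log2 scale (SE), with adjusted p of 8.47e-05, 0.000224 and 0.00299. Cluster-16487.28111 had FPKM values of 0.36, 0.95 and 0.35 in CK at 1 d and of 57.6, 49.7 and 43.9 in CO2 at 1 d, with no overlap. In CO2+1-MCP at 1 d its FPKM was 68.5, 63.8 and 81.4, a rise of 7.02 ± 0.42 over the same CK libraries (SE, edgeR adjusted p = 0.000234). At 4 d it was still 5.83 ± 0.58 higher in CO2 (SE, edgeR adjusted p = 0.0192) and 5.11 ± 0.30 higher in CO2+1-MCP (SE, edgeR adjusted p = 0.0178), calls that were lost without a CK library as above. Even at its highest it stayed far below Cluster-16487.111793: its mean FPKM in CO2+1-MCP at 1 d was 71.2, against 69873.

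Cluster-16487.2009, a basic chitinase 1 of Diospyros kaki by its NR hit, had no count in any of the 9 CK libraries. Its FPKM was 1.69 to 2.44 in CO2 at 1 d and 5.33 to 15.5 at 4 d, and 1.10 to 2.78 and 1.67 to 5.68 in CO2+1-MCP, so every treated library had some. Cluster-16487.103798, with the same NR description as Cluster-16487.2009, had 48.9 ± 6.16 in CK at 4 d and 449.9 ± 89.4 in CO2 at 4 d (SD, n = 3), and it also carries the hevein domain. It rose in CO2 at 4 d by 3.32 ± 0.33 on the log2 scale (SE, edgeR adjusted p = 0.0192), and at 1 d had 0.52 ± 0.20 (SE, edgeR adjusted p = 0.0828). Its call at 4 d was also lost without any 1 of the CK libraries of 4 d, or without CO2 4 d library B. In untreated fruit its mean FPKM was 222 at 0 d and 114 at 1 d.

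**Figure D4:**
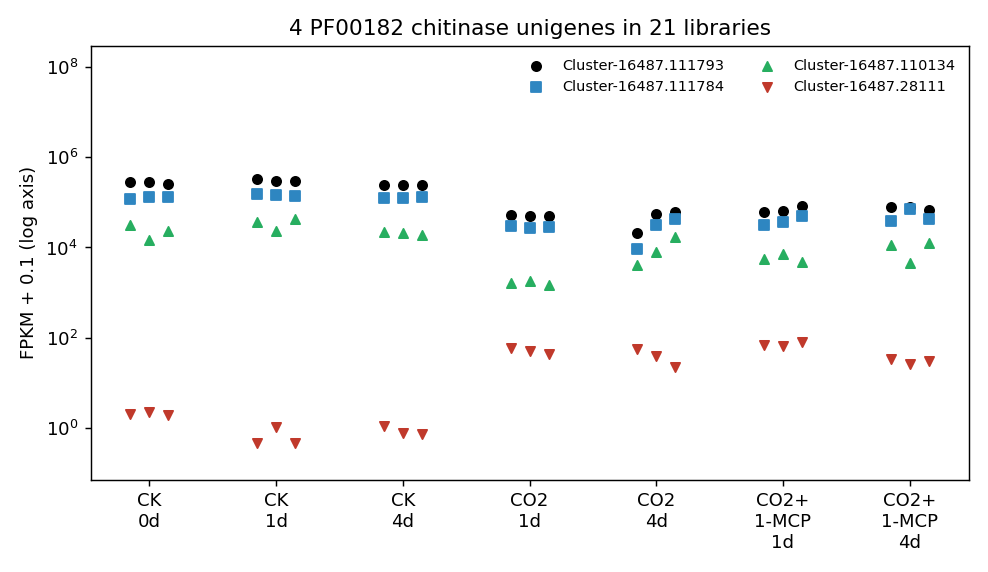
FPKM plus 0.1 on a log axis (y) of 4 PF00182 unigenes in the 3 libraries of 7 groups (points in the order A, B, C). Cluster-16487.111793 (circles) and Cluster-16487.111784 (squares) lie lower in treated fruit, Cluster-16487.110134 (triangles), whose FPKM rests on an effective length of 10.7 to 18.6 bases, is lowest in CO2 at 1 d, and Cluster-16487.28111 (inverted triangles) goes from 0.35 to 2.15 in CK to 22.1 to 81.4 in treated fruit.

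The wider group of defence proteins, 696 other unigenes annotated as chitinases, thaumatin-like proteins, osmotins, beta-1,3-glucanases, defensins and snakins, was also lower in treated fruit by its summed counts. It took 10.1% ± 0.702, 10.9% ± 0.487 and 8.97% ± 0.208 of counts in CK at 0, 1 and 4 d (SD, n = 3). In CO2 it took 3.37% ± 0.084 and 4.17% ± 0.524 at 1 and 4 d, and in CO2+1-MCP 4.05% ± 0.652 and 5.05% ± 1.07. A few unigenes carry much of this sum. In CK at 1 d Cluster-16487.110924 took 3.04%, and the PF00182 relatives Cluster-16487.111174 and Cluster-16487.111784 took 2.82% and 1.14%. The sum is therefore not independent of the chitinase values above. By single unigenes, 123 of 290 fell and 53 rose in CO2 at 1 d against CK, with a median log2 fold change of -0.94, beside 19.6% lower and 20.9% higher of all unigenes tested. In CO2+1-MCP at 1 d 106 of 289 fell and 35 rose, with a median of -0.92, beside 17.2% and 18.5%. At 4 d 17 of 309 fell and 37 rose in CO2, with a median of 0.07, beside 1.76% and 4.57%. In CO2+1-MCP at 4 d 2 of 320 fell and 6 rose, with a median of 0.17, beside 0.0498% and 0.253%. DESeq2 called 30 lower and 48 higher in CO2 at 4 d, beside 5.54% lower and 10.2% higher of all unigenes. In CO2+1-MCP at 4 d it called 16 lower and 41 higher, beside 2.26% and 3.4%.

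Most of this sum was thaumatin-like, a family of small antifungal proteins. Thaumatin-like and osmotin unigenes took 5.60%, 6.10% and 4.95% of counts in CK at 0, 1 and 4 d, 1.81% and 2.64% in CO2 at 1 and 4 d, and 2.26% and 2.83% in CO2+1-MCP. Cluster-16487.110924 was the largest of them by mean share in every group but CO2 at 4 d. There Cluster-16487.111134, also thaumatin-like, took 0.664% of counts and Cluster-16487.110924 took 0.636%. Cluster-16487.110924 had a mean FPKM of 101963 ± 2669 in CK at 1 d, 41472 ± 1727 in CO2 at 1 d and 21176 ± 6851 in CO2 at 4 d (SD, n = 3). It thus fell from 1 d to 4 d in CO2 while the thaumatin-like sum rose, and does not stand for its family there. Besides Cluster-16487.110924 and the chitinases Cluster-16487.111174 and Cluster-16487.111784, the 5 defence unigenes of highest mean FPKM held 2 annotated as P21-like. Of these Cluster-16487.110458 had 90375 ± 8224 in CK at 1 d and 37606 ± 1879 in CO2 (SD, n = 3), and Cluster-16487.110893, at 206 bases the shortest of the 5, had 108725 ± 15114 and 38221 ± 1318. By share of counts in CK at 1 d, Cluster-16487.110893 took only 0.026%, against 0.536% for Cluster-16487.110458 and 3.04% for Cluster-16487.110924. Its FPKM therefore does not rank it by reads. Beta-1,3-glucanases, which cut the other main polymer of fungal walls, took 0.043% to 0.105% of counts in every group, and defensins and snakins 0.309% to 0.719%, with the group means of 1 d at 0.309% in CK and 0.575% in CO2. Chitinases with the unrelated domain PF00704 shared the KEGG entry of Cluster-16487.111793 and took 0.033% to 0.170%.

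The unigenes with the most similar pattern were sought among 14673 with a mean FPKM of at least 10, by Pearson's r of log2 CPM over the 21 libraries. Since 9 CK and 12 treated libraries are far apart, r largely reflects that contrast. The highest were Cluster-16487.111174 (r = 0.982), Cluster-16487.111784 (0.971), Cluster-16487.111420 (0.954), Cluster-16487.109603 (0.943) and Cluster-16487.110864 (0.940). All but Cluster-16487.109603, which is 233 bases long and has no annotation, are PF00182 unigenes. Cluster-16487.111174, Cluster-16487.111420 and Cluster-16487.110864 also match the same clone in NT. Reads can be split between them and Cluster-16487.111793, so their high r may be partly built in. Only 15 unigenes reached an r above 0.9, and the median was -0.22. By Spearman's rho 3 of the 5 were among the first 5, and by the 7 group means 2 were.

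After the PF00182 unigenes, and picked out once seen, came a thaumatin-like protein, Cluster-16487.111545 (r = 0.931), and 3 unigenes annotated as alpha-amylase, which breaks down starch, at r = 0.927, 0.922 and 0.920. The largest of these by count, Cluster-16487.110751, had an FPKM of 865 to 985 in CK at 1 d and of 181 to 233 in CO2 at 1 d.

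The most opposite patterns belonged to Cluster-16487.142176 (r = -0.957), a TOM40 subunit of the mitochondrial import pore, to Cluster-16487.115381 (-0.952) and Cluster-16487.112170 (-0.942), both formate dehydrogenases of mitochondria by their Swiss-Prot hit, to Cluster-16487.193122 (-0.944), a small heat shock protein, and to Cluster-16487.95526 (-0.948), without an NR hit. Cluster-16487.142176 had an FPKM of 10.9 to 12.2 in CK at 1 d and of 20.9 to 22.9 in CO2. The heat shock unigene Cluster-16487.193122 had 0.98 to 5.75 in CK at 1 d and 111 to 166 in CO2.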

How the data were processed

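The cDNA libraries were sequenced as paired ends and assembled by the authors with Trinity (min_kmer_cov of 2). The authors deposited, per library, an estimated count of reads per unigene, not normalized. The deposited FPKM values were normalized by the authors for depth and unigene length. RSEM is named in the submitters' processing notes, with no version. The deposited annotation gives a length and a hit score per database. Between 24.5% and 37.6% of counts per library were not whole; all were rounded for the tests.

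The percent of library counts, means and SDs were computed with Python 3.11.15, numpy 2.4.6, pandas 2.3.3 and scipy 1.17.1, and figures with matplotlib 3.10.9. Pairs of groups were compared with edgeR 4.0.16 in R 4.3.3 (with data.table at version 1.17.8 and jsonlite at 2.0.0): filterByExpr, TMM scaling, quasi-likelihood F test, Benjamini-Hochberg adjustment over all unigenes tested, calls at an adjusted p below 0.05. The difference of effects was a contrast in 1 fit of 12 libraries. Similarity used log2 of TMM-scaled CPM plus 1. The study's methods describe RNA extraction in 3 biological replicates without giving the fruit in each, so p-values measure the spread between these samples.

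The unigene, the lists and the tests were chosen with earlier results of these data known. Unigenes were named by rule: the chitinase itself, unigenes with its NR description (none), the 5 of highest mean FPKM with its domain, Swiss-Prot hit or KEGG entry, the next largest in each library, the 5 most and the 5 least similar, the defence list, and DkADH and DkPDC as a check. The same Swiss-Prot hit was held by 23 others and the same KEGG entry by 105, and their 5 highest added Cluster-16487.110857 and Cluster-16487.111420. DkADH unigenes took 0.011% to 0.020% of counts in CK and 0.020% to 0.080% in treated groups, and unigenes with words for non-plant sources 0.068% to 0.117%. Alternatives were DESeq2 1.42.0, other scalings, no filter, 1 fit of all groups, a replicate block, each library left out, a fold change above 5, other measures of the share and, chosen after seeing the data, sums over the NT description and the PF00182 list.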

Additional observations from a re-analysis of the deposited data

Results flagged for a closer look

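In 5 of 71 PF00182 unigenes with any count, every library of a treatment lay on 1 side of its comparison group at 1 d and on the opposite side at 4 d. Cluster-16487.111793 is among the 71 but not among the 5. The difference between the days was not tested. The same switch in any of the 3 comparisons was seen in 4.64% of all 250275 unigenes with any count. Among those past the count filter it was seen in 5 of 30 PF00182 unigenes and in 10.4% of 90891. Values are log2 ratios of mean FPKM, and groups of 3 were not examined for outlying samples.

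Cluster-16487.121198 in CO2 against CK had -1.90 at 1 d and 3.12 at 4 d, from a mean FPKM of 4.97 against 18.5 at 1 d to 41.9 against 4.82 at 4 d. Cluster-16487.109981, a chitinase-like protein, had 0.92 at 1 d and -0.49 at 4 d in CO2, and 0.46 and -0.20 in CO2+1-MCP, against CK. In CO2+1-MCP against CK, Cluster-16487.110987 had -1.69 and 0.66, Cluster-16487.149654 had -1.64 and 1.25, and Cluster-16487.149655 had -2.36 and 0.81. Cluster-16487.149655 also had -1.48 at 1 d and 1.12 at 4 d in CO2+1-MCP against CO2.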

How the results depend on the processing

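The log2 fold changes of Cluster-16487.111793 against CK kept their direction under all 15 alternatives each, ranging from -2.71 to -2.50 for CO2 and -2.21 to -2.00 for CO2+1-MCP at 1 d, and from -2.56 to -2.05 and -1.95 to -1.68 at 4 d. CO2+1-MCP against CO2 also kept direction and stayed uncalled (0.375 to 0.569 at 1 d and 0.277 to 0.794 at 4 d with each library left out, with an edgeR or DESeq2 adjusted p of at least 0.206 and 0.355 under every alternative), and the permutation difference ranged from 1.16 to 1.83 points with adjusted p of 0.01 to 0.02. With library totals only, CO2+1-MCP at 4 d against 1 d turned to 0.115. With each library left out, CO2 at 4 d against 1 d ranged from -0.387 to 0.089, the difference of the 1-MCP effects from -0.206 to 0.258, and the share at 4 d minus 1 d from -0.301 to 0.373 points; the cause was not tested.

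Counts of PF00182 unigenes changed more, against the 6 higher and 4 lower of CO2, and the 3 higher and 1 lower of CO2+1-MCP, against CK at 4 d. Under the replicate block 0 were called in any of these 4 counts, as of all unigenes, and 1 fell in CO2 from 1 d to 4 d, where 2 did without it. The letters were not taken as pairing, since same-letter libraries deviated together (r over 0.1 for all 3) in 0 of 10 pairs of groups, and the block changed no other call of Cluster-16487.111793 (log2 0.453 and 0.686 for CO2+1-MCP against CO2 at 1 and 4 d). For CO2+1-MCP and CO2 at 4 d, r was 0.038, 0.459 and 0.354 for A, B and C, so libraries B and C did deviate together there. The permutation test within days did not use the letters. DESeq2 called 9 lower in CO2, and 7 higher and 6 lower in CO2+1-MCP, at 4 d, beside 5.54%, 3.4% and 2.26% of all unigenes; between CO2+1-MCP and CO2 it called 6 higher and 1 lower at 1 d and 1 lower at 4 d. Without a filter, 6 higher and 2 lower were called in CO2+1-MCP against CK at 4 d (0.226% and 0.094% of all unigenes), 5 higher against CO2 at 1 d, 1 lower against CO2 at 4 d, and 1 lower in CO2 from 1 d to 4 d. In 1 fit of all groups 6 higher and 3 lower were called in CO2+1-MCP against CK at 4 d (1.25% and 0.479% of all), 1 higher against CO2 at 1 d and 1 lower against CO2 at 4 d. Against the 3 higher and 3 lower of CO2+1-MCP from 1 d to 4 d, 1 fit of all groups called 5 of each, no filter gave 5 lower, a fold change above 5 left 0 lower, and leaving out each library gave 2 to 3 higher and 2 to 3 lower. Library totals gave 5 higher in CO2+1-MCP at 4 d (1.01% of all) and 1 lower in CO2 from 1 d to 4 d. A fold change above 5 left 7 lower in CO2+1-MCP at 1 d, 0 lower at 4 d, and 4 higher and 0 lower in CO2 from 1 d to 4 d. With each library left out the counts ranged from 0 to 6 higher and 0 to 8 lower in CO2 and from 0 to 7 higher and 0 to 4 lower in CO2+1-MCP at 4 d, and from 6 to 11 higher and 1 to 2 lower in CO2 from 1 d to 4 d. Sums over the NR description could not be run, since no other unigene shares it.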
